A study of Mus musculus with 2 samples.

Results

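The complement, coagulation and acute phase genes described here are 42 genes taken by symbol from the 32285 genes of a single-nucleus count matrix, and every symbol was found. They comprise 9 genes of complement initiation and its convertases, 4 of the membrane attack complex, a complement regulator (Cfi) and a complement receptor (C5ar1), 9 coagulation proteases and cofactors, the 3 fibrinogen chains, 5 genes of anticoagulation and fibrinolysis and 10 acute phase genes. Nuclei came from frozen liver of mice with hepatocellular carcinoma (HCC), from an area of residual tumour cut out by microdissection. The labels list 2 samples of 1 group, MRD-HCC 1 and MRD-HCC 2, and name no genotype, strain, treatment, time or age, so neither an untreated nor a tumour-free liver was compared. The barcodes of the deposited matrix name no sample, so it was handled as 1 pooled sample and no value has replicates. Every interval below is an exact 95% Poisson interval (binomial for shares of nuclei) that covers counting error only, and no difference was tested between animals.

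Hepatocytes make most of the proteins encoded by these genes and secrete them into plasma. In the complement cascade, the proteases C1s and Masp2 cut C4 and C2. The resulting convertases cut C3, and C6, C8 and C9 assemble into a pore in the target membrane. In coagulation, a chain of proteases ends in thrombin, which cuts fibrinogen into fibrin, while antithrombin and protein C limit the reaction and plasmin dissolves the clot. In the acute phase response, inflammatory cytokines acting through STAT3, C/EBP and NF-kappaB factors raise the hepatocyte's output of serum amyloid A, haptoglobin, fibrinogen and related proteins. Hepatocytes also differ along the lobule, from periportal cells at the incoming blood to pericentral cells at the central vein.

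Nuclei were sorted into 17 gates by marker genes, from 16411 barcodes kept of 17169. The gates do not cover all kept barcodes. Of these, 6926 were left ungated, 1646 passed an epithelial list but entered no gate, and 577 passed for more than 1 lineage. None of them is in the values by gate. The gates relevant to the main comparisons held 1258 periportal, 129 intermediate and 447 pericentral hepatocyte nuclei, 204 nuclei of a tumour type with high Ccnd3, and 1203 and 260 nuclei of 2 tumour types with high Pkhd1. These last are named by further markers as the Kcnj16 type (Kcnj16 and Slc8a3) and the Zfp804a type (Zfp804a and Hmga2). Median depth ran from 1780 unique molecular identifiers (UMIs) per nucleus in sinusoidal endothelium to 16635 in pericentral hepatocytes. A gate is a range of marker scores and not a proven cell type. Within a factor of 1.5 of the threshold lay 83 periportal, 96 pericentral, 83 Ccnd3-high and 322 of 838 ductal nuclei. Glul stood at 550.2 CPM (UMIs of a gene per 1e6 UMIs of the gate) in the pericentral and 17.6 CPM in the periportal gate. It is in the list used to draw the zones, so this difference follows from the gating and is no check of the labels. Defining markers did not separate the tumour gates well. Ccnd3 stood at 6385 CPM in the Ccnd3-high gate, but also at 4876 CPM in the Kcnj16 type, 9087 CPM in the Zfp804a type and 6228 CPM in the ductal gate. Per nucleus, the Ccnd3 marker list had a median of 6.38 times its free RNA level in the Ccnd3-high gate, 5.40 in the Kcnj16 type, 6.90 in the Zfp804a type and 6.23 in the ductal gate. The Ccnd3-high gate differed from the other tumour gates by the scores used to draw it, the Pkhd1 list (a median of 1.28 times free RNA against 7.59 and 7.47) and the hepatocyte list (0.794 against 0.272 and 0.176). As a single gene, Pkhd1 stood at 738 CPM in the Ccnd3-high gate, 908 CPM in the Zfp804a type and 3882 CPM in the Kcnj16 type. It thus did not separate the former pair well. In the ductal gate Pkhd1 stood at 4653 CPM, above all 3 tumour gates, and the Pkhd1 list had a median of 4.53 times free RNA. High Pkhd1 was therefore not particular to the tumour gates. On the hepatocyte list, the hepatocyte gates had medians of 1.22 (periportal) and 1.26 (pericentral) times free RNA.

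Free RNA, which leaks from broken cells into every droplet, holds these genes at a higher share than any gate does. It was measured in 49929 uncalled barcodes of at least 500 but fewer than 850 UMIs, where the members made up 4.83% of all UMIs. In the hepatocyte gates they made up 2.43%, in the Ccnd3-high gate 1.86% and in both Pkhd1-high gates together 0.708%. Per nucleus, the median share was 2.63% (quartiles 2.31 and 2.97) in periportal and 2.08% (1.74 and 2.49) in pericentral hepatocytes. It was 1.63% (1.32 and 2.10) in the Ccnd3-high gate, 0.728% in the Kcnj16 type and 0.651% in the Zfp804a type. Haemoglobin RNA, a product of red blood cell precursors, served as a yardstick for how much free RNA a gate holds. Its level relative to free RNA was 0.0916 in the hepatocyte gates, 0.167 in the Ccnd3-high gate, 0.148 in the Kcnj16 type, 0.177 in the Zfp804a type, 0.284 in stellate cells, 0.393 in Kupffer cells and 0.444 in other macrophages. A member whose level relative to free RNA lies near the gate's haemoglobin value is thus no higher there than free RNA alone would put it, if haemoglobin enters these nuclei only as free RNA, which was not tested.

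**Figure D1:**
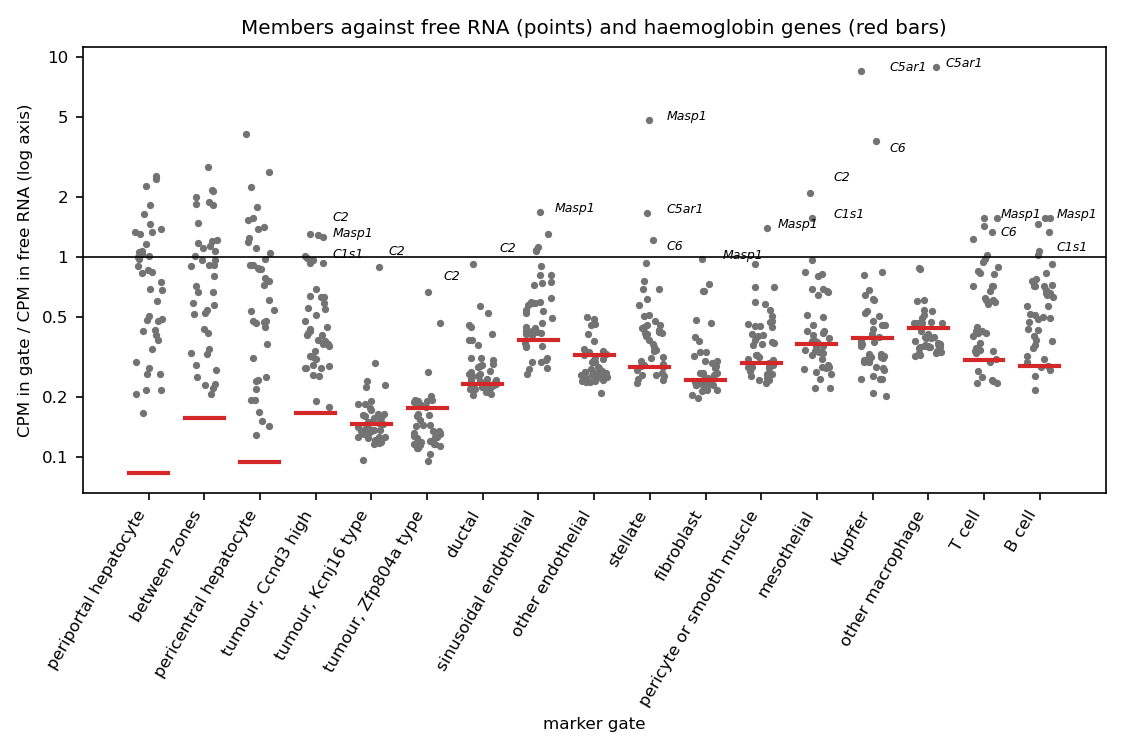
Level of each member relative to free RNA (points, log scale) in each of the 17 gates, with the gate's haemoglobin level relative to free RNA as a red bar. In the Kcnj16 and Zfp804a tumour types 22 and 30 of 42 points lie at or under the bar, and in the hepatocyte gates nearly all lie above it.

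Promoter sequence was taken for the members on which the results turn: the 3 fibrinogen chains, which differed together between zones, the near copies Saa1 and Saa2, and C6, the member at least 2-fold higher in pericentral nuclei. Of the 42 members, 32 matched an entry of the RefSeq promoter table (build GRCm38.p6). Each line gives the 250 bases before the RefSeq start, on the gene's own strand from 5′ to 3′, in lower case. Capitals mark matches, on either strand, to TTGCNNAA (C/EBP type) or CTGGGAA (STAT3 type). A motif of NF-kappaB type was also searched. Fga lies at chr3:83025903-83026152 (plus strand), Fgb at chr3:83049864-83050113 (minus strand), Fgg at chr3:83007474-83007723 (plus strand), Saa1 at chr7:46742981-46743230 (minus strand), Saa2 at chr7:46751583-46751832 (plus strand) and C6 at chr15:4726960-4727209 (plus strand).
Fga: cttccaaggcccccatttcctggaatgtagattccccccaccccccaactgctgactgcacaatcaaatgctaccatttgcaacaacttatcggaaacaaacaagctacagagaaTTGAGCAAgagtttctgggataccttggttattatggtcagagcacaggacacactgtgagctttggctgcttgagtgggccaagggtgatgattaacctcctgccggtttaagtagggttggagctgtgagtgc
Fgb: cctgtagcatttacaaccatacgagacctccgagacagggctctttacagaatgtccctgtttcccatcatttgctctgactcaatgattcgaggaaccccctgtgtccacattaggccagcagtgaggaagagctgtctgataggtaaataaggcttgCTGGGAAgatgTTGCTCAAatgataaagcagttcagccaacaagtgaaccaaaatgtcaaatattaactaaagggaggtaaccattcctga
Fgg: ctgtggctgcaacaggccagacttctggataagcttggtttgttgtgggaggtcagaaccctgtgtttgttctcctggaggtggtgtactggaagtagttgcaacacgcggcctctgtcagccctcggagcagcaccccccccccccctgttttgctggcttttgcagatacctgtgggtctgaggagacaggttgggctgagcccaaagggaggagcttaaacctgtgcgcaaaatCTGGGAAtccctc
Saa1: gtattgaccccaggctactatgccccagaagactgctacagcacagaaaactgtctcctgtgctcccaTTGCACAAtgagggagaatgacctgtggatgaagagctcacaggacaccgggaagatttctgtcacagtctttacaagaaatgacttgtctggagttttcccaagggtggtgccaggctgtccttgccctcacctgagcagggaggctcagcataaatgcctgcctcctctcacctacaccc
Saa2: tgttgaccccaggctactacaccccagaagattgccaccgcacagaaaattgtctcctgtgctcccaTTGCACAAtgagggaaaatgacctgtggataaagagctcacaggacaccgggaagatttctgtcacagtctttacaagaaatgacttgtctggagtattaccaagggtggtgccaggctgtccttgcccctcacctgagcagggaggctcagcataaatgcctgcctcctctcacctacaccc
C6: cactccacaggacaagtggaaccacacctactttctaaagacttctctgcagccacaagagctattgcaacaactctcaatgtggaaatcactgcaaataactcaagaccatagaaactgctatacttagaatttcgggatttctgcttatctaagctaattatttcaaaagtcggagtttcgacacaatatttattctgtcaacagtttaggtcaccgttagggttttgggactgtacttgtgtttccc
The C/EBP type match began 135 bases before the start in Fga, 80 in Fgb, 182 in Saa1 and 183 in Saa2. The STAT3 type match began 91 bases before the start in Fgb and 13 in Fgg. The C6 window held none of the 3 motifs. Over all 32851 promoters of the table, 9.56% held the C/EBP type match, 9.10% the STAT3 type and 1.41% the NF-kappaB type. Of the 32 members with an entry, 12 held the C/EBP type in any of their promoters, 6 the STAT3 type and 0 the NF-kappaB type. These counts are per gene and the shares over the table are per promoter, so the units differ. A match describes letters only and not binding. The Saa1 and Saa2 windows were identical at 96.0% of 247 aligned bases.

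In hepatocyte nuclei, complement and coagulation genes such as F11, C8a and Masp1 stood above free RNA, while C3, Cfb and most acute phase genes stood far below it. Of the 42 members, 3 in the periportal gate were at least 2-fold above free RNA (as were 19.9% of all genes) and 16 at least 2-fold below it (29.9% of all genes). In the pericentral gate the counts were 3 above (20% of all genes) and 18 below (30.2%), and in the intermediate gate 4 above (18.5%) and 13 below (30.3%). The shares of members above free RNA lay below the background in all 3 gates. The shares of members below it lay above the background, or near it in the intermediate gate. F11, the coagulation protease factor XI, stood at 175 CPM in the periportal gate and 71.6 CPM in free RNA, or 2.45 times (2.33 to 2.58). C8a, the alpha chain of the membrane attack component C8, stood at 2.53 times (2.49 to 2.58), and Masp1, a protease of the lectin pathway, at 2.28 times (2.18 to 2.38). At the other end, Hp (haptoglobin) stood at 849.9 CPM against 4108 CPM in free RNA, or 0.207 times (0.204 to 0.210). Cfb, complement factor B, stood at 0.218 times, C3, the central complement protein, at 0.216 times and Orm1, an acid glycoprotein, at 0.261 times. Even these members, and C5ar1 at 0.167 times on 14 UMIs, were above the haemoglobin value of 0.0835 in that gate.

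The order of the members against free RNA followed gene length. Across 41 members (all but C5ar1), Spearman's rho between gene length and the level relative to free RNA was 0.63 in the periportal and 0.65 in the pericentral gate. This is a description over genes of the same nuclei, which share depth and are not replicates. The 16 members shorter than 10 kb had a median of 0.420 times free RNA in the periportal gate (range 0.207 to 1.17) and 0.283 in the pericentral gate. The 10 members longer than 30 kb had medians of 1.32 (range 0.608 to 2.53) and 1.31. Levels relative to free RNA of a short and a long member are thus not on 1 scale. This also limits counts of members above or under a fixed value such as that of haemoglobin, which pool genes of all lengths.

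**Figure D2:**
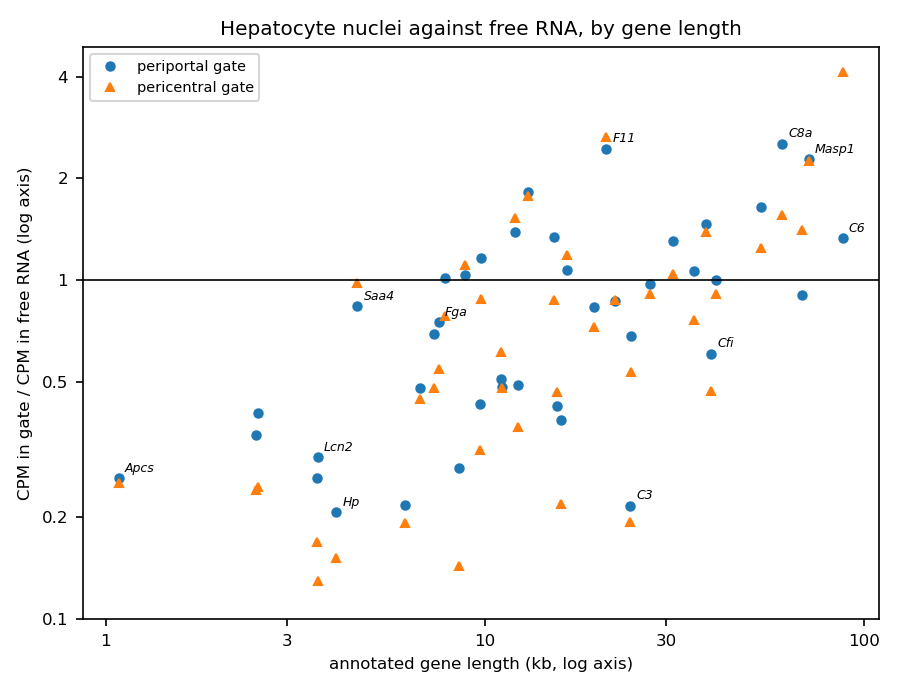
Gene length in kb (log axis) against level relative to free RNA (log axis) for 41 members in the periportal and pericentral hepatocyte gates, 1 point per gene. Short genes sit mainly below 1 and long genes mainly above it.

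Between the hepatocyte zones, C6 alone was at least 2-fold higher on the pericentral side and Lcn2 alone at least 2-fold lower, while the acute phase and fibrinogen genes leaned to the periportal side as groups. Of the 41 members with at least 20 UMIs in both gates together, 1 was thus higher (all genes: 4.29%) and 1 lower (all genes: 4.25%), so large differences were no more common than over all genes. The number lower was 4 with a stricter gate, 6 with free RNA subtracted and 0 with classes from clusters. The whole set was shifted slightly: 31 of 41 members were lower in the pericentral gate by any amount, and their median log2 ratio was -0.20 against -0.01 over all 14830 genes. C6 (ENSMUSG00000022181, chr15:4727175-4814967 on the plus strand of mm10), a protein of the membrane attack pore, stood at 273 CPM in periportal, 445 CPM in intermediate and 841 CPM in pericentral nuclei. Its pericentral level was 3.08-fold (2.97 to 3.19) the periportal one, and the intermediate gate lay between them. After thinning each nucleus to 1500 UMIs, C6 was detected in 63.5% (58.9 to 68.0) of 447 pericentral and 28.8% (26.3 to 31.4) of 1258 periportal nuclei. Without thinning these shares were 96.4% and 81.2%. In the T cell gate, whose cells are not known as a source of C6, the thinned share was 19.8% and the unthinned 35.2%, at a median depth of 2530.5 UMIs against 16635 and 13620.5 in the pericentral and periportal gates.

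The other membrane attack genes did not share the zone pattern of C6. C8a stood at 1362 CPM in periportal and 841 CPM in pericentral nuclei, a fold of 0.617 (0.601 to 0.634) in the opposite direction. C9, which polymerises into the pore, had a pericentral to periportal fold of 0.756 (0.735 to 0.777), and C8b, the beta chain of C8, one of 0.946 (0.885 to 1.01). Among the 9 initiation genes none passed 2-fold and the median log2 ratio was -0.04. C1ra, the protease that starts the classical pathway, was the highest of them at 1.20 (1.08 to 1.33), and C2, the convertase protease, the lowest at 0.716 (0.639 to 0.800). Masp1, Masp2, Mbl2 (the lectin that carries the Masp proteases), C3, C4b, Cfb and C1s1 lay between 0.886 and 1.10. Cfi, the protease that inactivates C3b, stood at 0.777 (0.737 to 0.819). For C6, the alternatives tried gave zone folds between 2.54 and 3.77.

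No coagulation, fibrinogen or anticoagulation gene passed 2-fold between zones, and F5 had the highest fold. F5, the cofactor that speeds prothrombin activation, stood at 257 CPM in periportal, 273 CPM in intermediate and 399 CPM in pericentral nuclei, a fold of 1.55 (1.49 to 1.62). The proteases F2 (prothrombin), F11 and F12 and the carrier subunit F13b lay between 0.987 and 1.08. F7, F9 and F10, proteases that depend on vitamin K, stood lower in pericentral nuclei at 0.753, 0.797 and 0.873, as did the kininogen Kng1 at 0.786. The 3 fibrinogen chains had similar folds. Fga stood at 2461 CPM in periportal and 1783 CPM in pericentral nuclei, a fold of 0.725 (0.712 to 0.738). Fgb had a fold of 0.728 (0.715 to 0.740) and Fgg one of 0.695 (0.683 to 0.708). Of the inhibitors, Serpinf2, which blocks plasmin, stood at 0.772 and Serpind1, a thrombin inhibitor, at 0.752, whereas Serpinc1 (antithrombin), Plg (plasminogen) and Proc (protein C) lay at 0.933, 0.913 and 1.11.

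The acute phase genes had the lowest group median of the zone comparison, a log2 ratio of -0.62 over 10 genes, with 1 of them at least 2-fold lower. Lcn2 (ENSMUSG00000026822, chr2:32384633-32388252, minus strand), lipocalin 2, which binds bacterial iron carriers, stood at 159.6 CPM in periportal, 133 CPM in intermediate and 68.6 CPM in pericentral nuclei. The pericentral level was 2.33-fold (2.13 to 2.55) lower, but 0.520 times the periportal one, and so within 2-fold, when classes were built from clusters. Hpx, the haem-binding hemopexin, stood at 1283 against 659 CPM, a fold of 0.514 (0.499 to 0.529). Itih4 and Itih3, chains of the inter-alpha inhibitor family, had folds of 0.563 and 0.652. The serum amyloid A genes Saa1 and Saa2 had folds of 0.690 and 0.602, while Saa4, the constitutive member of that family, leaned the other way at 1.17 (1.11 to 1.23). Hp stood at 0.731, Orm1 at 0.647 and Apcs, serum amyloid P, at 0.967. With free RNA subtracted, the folds of Lcn2, Hpx, Itih4, Orm1, Hp and Saa2 were 0.158, 0.248, 0.410, 0.419, 0.459 and 0.468, all at least 2-fold lower on the pericentral side. Haemoglobin relative to free RNA was 0.0835 in the periportal and 0.0952 in the pericentral gate.

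**Figure D3:**
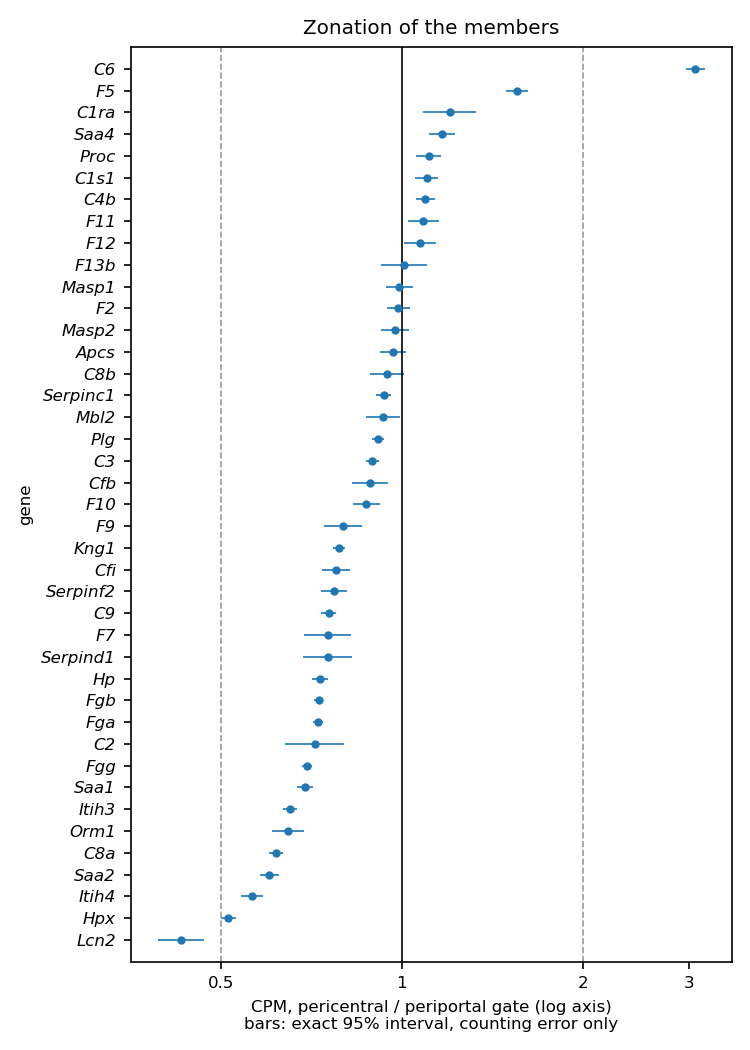
Pericentral level divided by periportal level (log axis) for 41 members in order, with exact 95% Poisson intervals as bars. C6 at 3.08 and Lcn2 at 0.430 are the only members beyond 2-fold, and the acute phase and fibrinogen genes lie left of 1 except for Saa4.

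Of 109 other pathway genes with enough UMIs, 1 was at least 2-fold higher in pericentral nuclei (all genes: 4.29%) and 5 at least 2-fold lower (all genes: 4.25%). The higher gene was Lifr, the receptor for leukaemia inhibitory factor, at 482 CPM against 161 CPM, a fold of 2.99 (2.85 to 3.13). Among the lower ones, Tnf, the inflammatory cytokine, was 9.47-fold (1.53 to 391) lower on 1 against 22 UMIs. Il1rn, the interleukin 1 receptor antagonist, was 2.27-fold lower. The 9 negative acute phase genes, such as albumin, had a median log2 ratio of -0.04 and none beyond 2-fold, against -0.36 for the 21 other acute phase genes.

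In the Ccnd3-high tumour gate, the membrane attack, lectin and anticoagulant genes were lower than in hepatocytes, while C3, Cfb, Lcn2 and Saa1 had folds above 1. Of 41 members tested, 1 was at least 2-fold higher (all genes: 17.3%) and 12 at least 2-fold lower (all genes: 10.9%). The share of lower members was thus above the background and that of higher members below it. The median log2 ratio was -0.53 over the members and 0.14 over all genes. Both gates were required to hold genes of the hepatocyte list, which bears on this comparison. Haemoglobin relative to free RNA was 1.83 times as high in the Ccnd3-high gate as in the hepatocyte gates, and its part in the folds is given where free RNA was subtracted.

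C6 had the lowest fold. It stood at 75.4 CPM (126 UMIs) in the Ccnd3-high gate, against 444 CPM over all hepatocyte gates, and was 5.89-fold (4.94 to 7.07) lower. It was 3.62-fold lower than in the periportal gate alone and 11.2-fold lower than in the pericentral gate. C8b was 3.27-fold (2.62 to 4.13) lower and C9 2.44-fold (2.26 to 2.65) lower, so 3 of 4 membrane attack genes passed 2-fold, and C8a stood at 691 against 1197 CPM, a fold of 0.577 (0.544 to 0.612). Of the lectin pathway, Masp2, the protease that cuts C4 and C2, was 2.88-fold (2.43 to 3.43) lower and its carrier Mbl2 2.64-fold (2.16 to 3.26) lower. Masp1 had a fold of 0.557 (0.487 to 0.634). C1ra stood at 0.517 (0.383 to 0.683) and C1s1 at 0.691 (0.620 to 0.767). Against the pericentral gate C9 was within 2-fold, at 0.509. After subtraction of free RNA, C6, C1ra and Mbl2 stood lower, at 0.106, 0.272 and 0.0342, so that Mbl2 and not C6 was then the lowest member.

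C3, C4b, C2 and Cfb, the proteins from which the convertases are built, had levels above those of hepatocytes. C3 (ENSMUSG00000024164, chr17:57203970-57228136, minus strand) stood at 2335 CPM in the Ccnd3-high gate against 1179 CPM in periportal, 1259 CPM in intermediate and 1052 CPM in pericentral nuclei, and at 5454 CPM in free RNA. The fold against all hepatocyte gates was 2.03 (1.97 to 2.10). It was 2.39 with free RNA subtracted, but 1.51 with a stricter gate and 1.29 when only barcodes of at most 1% mitochondrial UMIs were kept, and 1.98 against the periportal gate alone, so the C3 difference did not pass 2-fold in those settings. Cfb, the convertase protease of the alternative pathway, stood at 257 against 141 CPM, a fold of 1.83 (1.65 to 2.02). C4b, the classical pathway's C4, had a fold of 1.45 (1.36 to 1.54) and C2 one of 1.35 (1.13 to 1.61). With free RNA subtracted these 3 folds were 2.00, 1.47 and 1.42, so all kept their direction. Cfi had a fold of 0.909.

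Coagulation, fibrinogen and fibrinolysis genes were lower as groups, with median log2 ratios of -0.82, -0.94 and -1.003. F13b, the carrier subunit of the fibrin-linking factor XIII, stood at 29.3 against 81.7 CPM and was 2.79-fold (2.10 to 3.78) lower. F11 was 2.71-fold (2.24 to 3.29) lower and Kng1 2.29-fold (2.14 to 2.45) lower, and the other 6 coagulation members were within 2-fold. F7, which starts clotting with tissue factor, had a fold of 0.936 (0.786 to 1.11), near equality, and F12, a contact factor, one of 0.880. F2, F5, F9 and F10 had folds of 0.697, 0.529, 0.563 and 0.731. The fibrinogen chains lay just inside 2-fold: Fga at 0.519, Fgb at 0.727 and Fgg at 0.509. With free RNA subtracted, all 3 were beyond it, at 0.349, 0.434 and 0.311, and Kng1, F13b and Plg stood at 0.224, 0.202 and 0.185. Plg stood at 361 against 1109 CPM and was 3.07-fold (2.83 to 3.34) lower. Serpinf2 was 2.33-fold lower and Proc 2.01-fold lower, while Serpinc1 at 0.501 and Serpind1 at 0.906 were within 2-fold. Proc came within 2-fold against the periportal gate (0.517), and Kng1 (0.522) and Serpinf2 (0.521) against the pericentral gate. With at most 1% mitochondrial UMIs Proc stood at 0.514, and with classes from clusters Kng1 at 0.529.

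Unlike those groups, the acute phase genes had a median log2 ratio of 0.19 (-0.04 against the periportal and 0.75 against the pericentral gate). Lcn2 stood at 234 against 132 CPM, a fold of 1.77 (1.59 to 1.96). It was 3.41-fold (2.99 to 3.88) the pericentral level and 1.46-fold the periportal one, so that the size of its difference depended on the zone used as reference. Saa1 had a fold of 1.32 (1.26 to 1.38), Hp of 1.32 (1.26 to 1.39), Orm1 of 1.21 and Hpx of 1.18. Saa2 had a fold of 1.08, Itih4 of 1.10, Itih3 of 0.808 and Apcs of 0.722. Saa4 was beyond 2-fold, at 72.4 against 248 CPM, or 3.42-fold (2.86 to 4.13) lower. With free RNA subtracted, Lcn2 stood at 1.89 and Saa1 at 1.21, but Hp, Orm1, Hpx, Saa2 and Itih4 turned to 0.944, 0.901, 0.844, 0.890 and 0.898. Apcs then stood at 0.145 and Saa4 at 0.126, both beyond 2-fold.

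Among 110 other pathway genes, 20 were at least 2-fold higher in the Ccnd3-high gate (all genes: 17.3%) and 17 at least 2-fold lower (all genes: 10.9%). A2m, the broad protease inhibitor alpha-2-macroglobulin, stood at 591 against 9.37 CPM and was 63.1-fold (55.2 to 72.2) higher. Saa3, a serum amyloid A gene also made outside hepatocytes, was 8.36-fold higher, Il1rn 9.35-fold, Cd14, the co-receptor for bacterial lipopolysaccharide, 7.68-fold and Procr, the protein C receptor, 7.24-fold. The hepatocyte levels of A2m, Saa3 and Procr lay at 0.0751, 0.0641 and 0.0763 times free RNA, under the haemoglobin value of 0.0916 in those gates, so the size of these 3 folds is uncertain. Cd14, at 3.43 CPM in hepatocytes and 37.2 CPM in free RNA, lay close to that value, so the size of its fold is uncertain too. A2m stood at 125 CPM in free RNA. On the lower side, Il1r1, the receptor for interleukin 1, was 5.68-fold lower, the protease inhibitor Mug2 5.40-fold and Hrg, the histidine-rich glycoprotein, 5.14-fold. Hamp, the iron hormone hepcidin, was 5.02-fold and F8, the cofactor of F9, 4.66-fold lower.

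**Figure D4:**
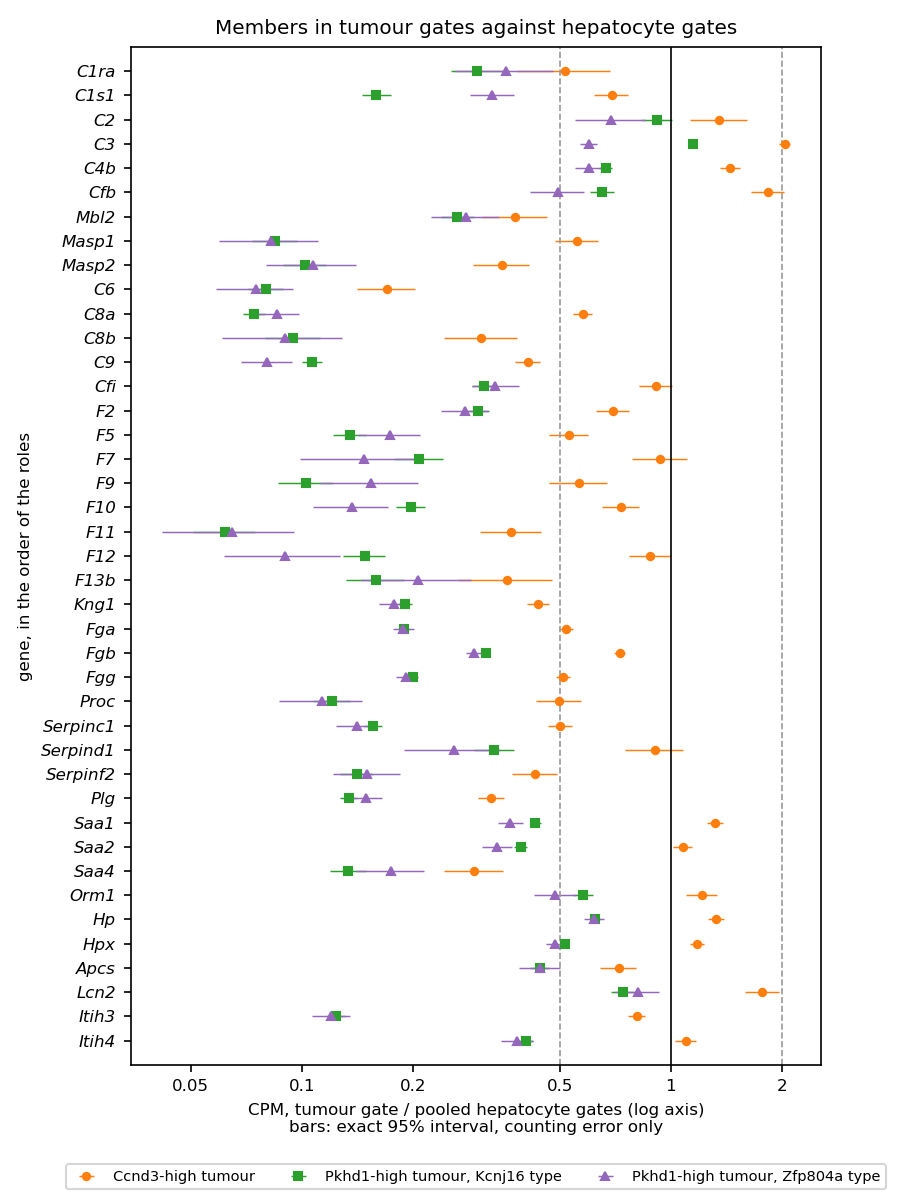
Level in each of 3 tumour gates divided by the level in the hepatocyte gates (log axis) for 41 members, grouped by role, with exact 95% Poisson intervals. The Ccnd3-high points run from 0.170 (C6) to 2.03 (C3), with the membrane attack genes below 1, and for each of the 41 members the points of both Pkhd1-high types lie further left.

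In the Pkhd1-high tumour gates, nearly the whole set was far below the hepatocyte level. Of 41 members, 0 were at least 2-fold higher (all genes: 25.9%) and 33 were at least 2-fold lower (all genes: 16.8%). The median log2 ratio was -2.38, against 0.22 over all genes. Every coagulation, fibrinogen, anticoagulation and membrane attack member passed 2-fold, with group medians of -2.50, -2.33, -2.78 and -3.48. F11 stood at 11.3 against 181 CPM and was 16.1-fold (13.5 to 19.2) lower. C8a was 13.1-fold (12.3 to 13.9) lower, C6 12.7-fold (11.5 to 14.0) lower and Masp1 11.9-fold (10.5 to 13.5) lower. These 4 had the largest differences before free RNA was subtracted. Fga, Fgb and Fgg stood at 0.189, 0.312 and 0.199 of the hepatocyte level, F2 at 0.297, Plg at 0.137 and Serpinc1 at 0.154. C9 and C8b stood at 0.102 and 0.0938, and Cfi at 0.316. Of the initiation genes, C1ra, C1s1, Masp2 and Mbl2 stood at 0.310, 0.190, 0.103 and 0.267. The other coagulation members ran from 0.112 (F9) and 0.138 (F12) to 0.197 (F7), with Kng1 at 0.188, F5 at 0.142, F13b at 0.167 and F10 at 0.187. Proc, Serpinf2 and Serpind1 stood at 0.119, 0.143 and 0.319. The acute phase genes had a median log2 ratio of -1.21 and 6 of 10 members beyond 2-fold: Saa4 at 0.141, Itih3 at 0.123, Saa2 at 0.382, Itih4 at 0.401, Saa1 at 0.419 and Apcs at 0.441. Against the pericentral gate alone, Saa1, Saa2 and Itih4 came within 2-fold, at 0.551, 0.556 and 0.612. After subtraction of free RNA, nothing was left of 9 of the 10 acute phase genes, and Lcn2 stood at 0.237.

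Many members lay near the haemoglobin value in these gates. In the Kcnj16 type, 22 of 42 members stood at or under the haemoglobin value of 0.148 times free RNA, and in the Zfp804a type 30 of 42 at or under 0.177. Beyond 2 times that value were only C2 and C4b in the Kcnj16 type and C2 and C1s1 in the Zfp804a type. C2 stood at 55.6 CPM in the Kcnj16 type, 41.8 CPM in the Zfp804a type, 60.8 CPM in hepatocytes and 62.6 CPM in free RNA, and its fold against hepatocytes was 0.874 (0.797 to 0.957). After thinning, C2 was seen in 8.16% (6.67 to 9.87) of 1188 nuclei of the Kcnj16 type and 5.67% (3.13 to 9.33) of 247 of the Zfp804a type. The share was 8.59% in periportal nuclei and 1.48% (0.677 to 2.78) in other endothelium, the endothelial gate that scored lower on the sinusoidal list than on the general one. Without thinning the 4 shares were 32.7%, 24.2%, 58.2% and 6.13%, at median depths of 7139, 6930.5, 13620.5 and 3704 UMIs. The 8 members within 2-fold of hepatocytes were C2, C3, at 1204 CPM and a fold of 1.05 (1.03 to 1.07), Lcn2 at 0.754, C4b at 0.654, Cfb at 0.623, Hp at 0.622, Orm1 at 0.561 and Hpx at 0.510. With free RNA subtracted, C2 stood at 0.844 of the hepatocyte level, C3 at 0.609 and C4b at 0.416, while nothing was left of Cfb.

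Among 111 other pathway genes, 20 were at least 2-fold higher in the Pkhd1-high gates than in hepatocytes (all genes: 25.9%) and 51 at least 2-fold lower (all genes: 16.8%). The lower ones included Hc, the mouse complement C5, which was 19.8-fold (18.6 to 21.1) lower, and the C4 copy C4a at 19.7-fold. Il1r1 was 27.2-fold and Mug2 23.8-fold lower. Of 14 coagulation factors, receptors and cofactors 3 were higher and 8 lower, and of 14 inhibitors and activators of coagulation and fibrinolysis 7 were higher and 5 lower. Anxa2, an annexin that binds plasminogen at the cell surface, stood at 135 against 8.58 CPM, a fold of 15.7 (13.8 to 18.0). Plat, the tissue plasminogen activator, was 17.5-fold higher, Procr 12.2-fold, Cd14 6.71-fold and F3, the tissue factor that starts coagulation, 6.41-fold. The hepatocyte levels of Plat and Procr lay at 0.0666 and 0.0763 times free RNA, under the haemoglobin value of 0.0916, so the size of these folds is uncertain. Cd14, at 3.43 CPM in hepatocytes and 37.2 CPM in free RNA, lay close to that value, so the size of its fold is uncertain too. F3 stood at 33.4 CPM in the Kcnj16 type, 26.3 CPM in the Zfp804a type and 3.59 CPM in the Ccnd3-high gate, against 5.01 CPM in hepatocytes and 13.6 CPM in free RNA.

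The Ccnd3-high and Pkhd1-high gates were also set side by side. All 41 members tested were higher in the Ccnd3-high gate, 36 of them by at least 2-fold (all genes: 11.9%) and 0 were at least 2-fold lower (all genes: 14.2%). The folds ran from 1.42 for Mbl2 to 7.56 for C8a. Mbl2 lay at 0.179 times free RNA in the Ccnd3-high gate, near its haemoglobin value of 0.167. The Ccnd3-high gate was drawn to hold hepatocyte-list genes, which bears on this order.

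Between the Pkhd1-high types, ratios compare levels that were mostly under 2 times the haemoglobin value in both gates. Of 41 members, 1 was at least 2-fold higher in the Zfp804a type than in the Kcnj16 type (all genes: 7.61%) and 0 were at least 2-fold lower (all genes: 11.6%). Once free RNA was subtracted the counts were 4 higher and 14 lower, on residues near 0, so neither likeness nor difference of these types can be read from most members. C1s1 (ENSMUSG00000038521, chr6:124530345-124542359, minus strand), the protease of the classical pathway that cuts C4 and C2, stood at 104 CPM (221 UMIs) in the Zfp804a type and 50.3 CPM (489 UMIs) in the Kcnj16 type, a fold of 2.06 (1.75 to 2.42). Its level was 0.472 times free RNA in the former, against a haemoglobin value of 0.177, and 0.229 times in the latter, against 0.148. C3 leaned the other way, at 689 CPM against 1317 CPM, or 1.91-fold (1.81 to 2.02) lower, and lay at 0.126 and 0.241 times free RNA. The fold of C1s1 was 3.71 with free RNA subtracted, and nothing was left of C3 in the Zfp804a type. F12 at 0.608 and F10 at 0.693 were the next lowest and F9 at 1.499 the next highest, on levels close to the haemoglobin value. Measured against hepatocytes, the Kcnj16 type had 33 members at least 2-fold lower (all genes: 17.5%) and 0 higher (all genes: 24.7%). The Zfp804a type had 36 lower (all genes: 21.2%) and 0 higher (all genes: 23%).

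Of 106 other pathway genes, 11 were at least 2-fold higher in the Zfp804a type (all genes: 7.61%) and 6 at least 2-fold lower (all genes: 11.6%). Plat stood at 72.3 CPM in the Zfp804a type and 5.96 CPM in the Kcnj16 type, a fold of 12.1 (8.90 to 16.7), and Plau, the urokinase activator of plasminogen, had a fold of 9.13. Procr was 9.02-fold higher, Vwf, the platelet-binding von Willebrand factor, 6.84-fold and the liver transcription factor Foxa2 5.25-fold. Crp, C-reactive protein, stood at 58.2 CPM against 613 CPM and was 10.5-fold (8.82 to 12.7) lower in the Zfp804a type. Serpina5, the protein C inhibitor, was 6.66-fold lower, and the hepatocyte transcription factor Onecut1 was 2.99-fold lower.

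**Figure D5:**
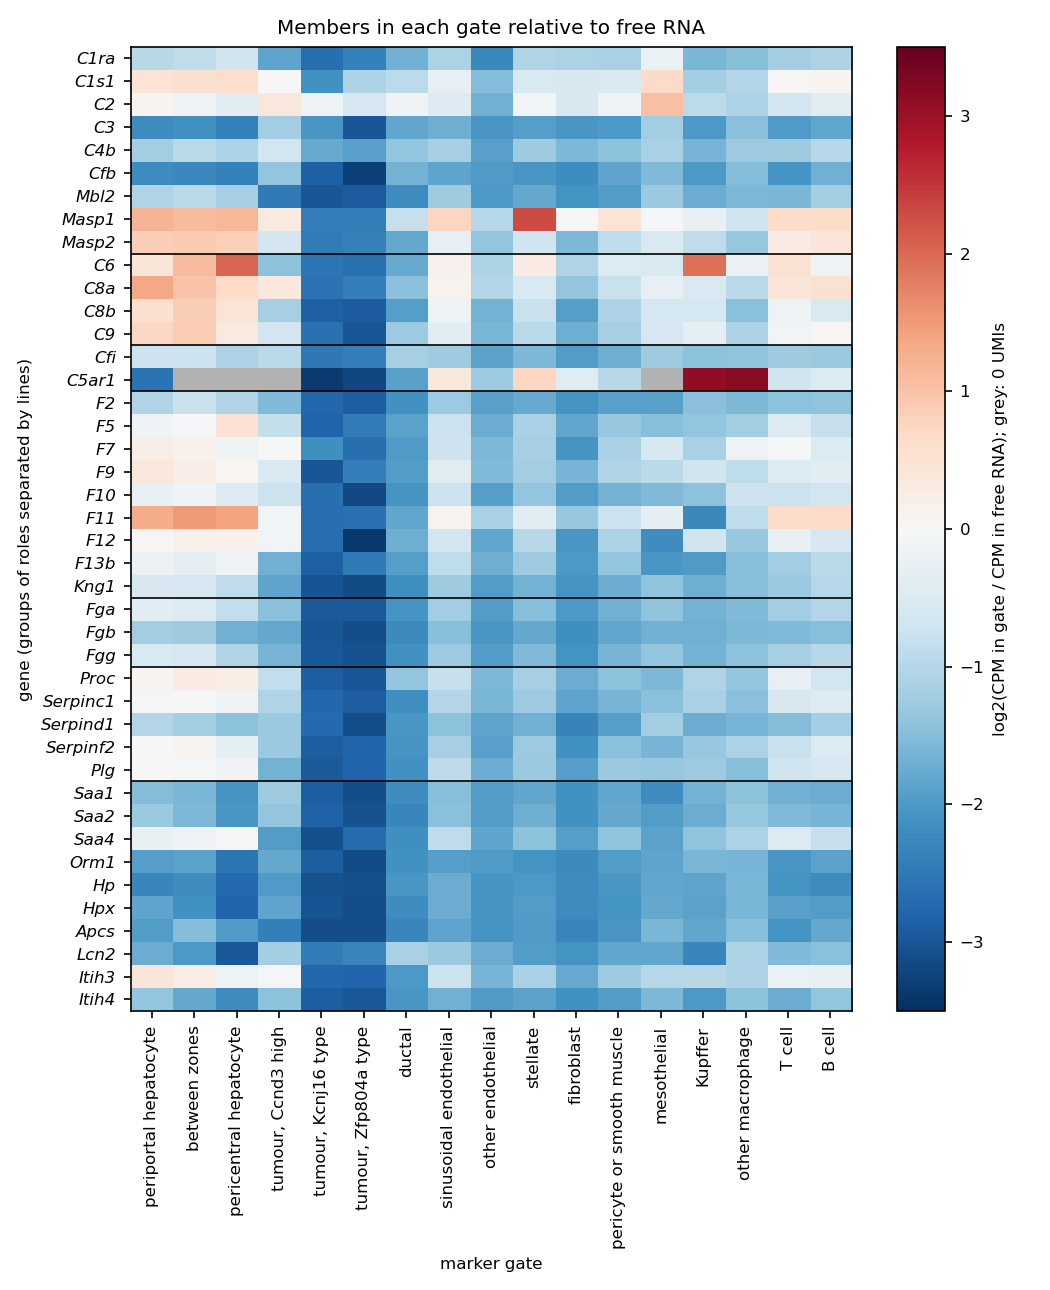
Log2 of each member's level relative to free RNA, as colour, for 42 members (rows, by role) in 17 gates (columns). Outside hepatocytes, few squares lie above free RNA, among them C6 in Kupffer nuclei, C5ar1 in both macrophage gates, Masp1 in stellate nuclei and C2 in mesothelial nuclei.

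In the macrophages 2 members stood out, C6 in Kupffer cells, the resident macrophages of the liver sinusoids, and C5ar1 in both macrophage gates. Against free RNA, 2 of 42 members were at least 2-fold higher in Kupffer nuclei (all genes: 25.3%) and 31 at least 2-fold lower (all genes: 26.8%). In macrophages without Kupffer markers 1 was higher (all genes: 24.5%) and 34 were lower (all genes: 17.5%). The shares of higher members lie far below the background and those of lower members above it. The gates held 78 and 317 nuclei, and the Kupffer marker Clec4f stood at 889 CPM in the former and 53.3 CPM in the latter.

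C6 stood at 778 CPM (259 UMIs) in Kupffer nuclei, 179 CPM in other macrophages and 205 CPM in free RNA. The Kupffer level was 3.80 times (3.34 to 4.30) free RNA and 4.35-fold (3.57 to 5.31) that of other macrophages, and close to the 841 CPM of pericentral hepatocytes. After thinning, C6 was seen in 57.8% (44.8 to 70.1) of 64 Kupffer nuclei and 17.6% (13.2 to 22.7) of 262 other macrophages, with 14 and 55 shallower nuclei left out. The T cell gate had 19.8% (12.7 to 28.7) of 106, so other macrophages were not above it. Hepatocyte markers had a median of 1.13 times free RNA in that gate. Among the endothelial, stellate, fibroblast and pericyte gates, the share ran from 9.93% (7.28 to 13.1) in fibroblasts to 26.4% (23.2 to 29.8) in stellate nuclei. Whether other macrophages stood higher thus depended on the gate taken for comparison. Without thinning the shares in Kupffer, other macrophage and T cell nuclei were 71.8%, 28.7% and 35.2%, at median depths of 2884.5, 2643 and 2530.5 UMIs. Hepatocyte RNA was measured beside it. Over the 12 hepatocyte markers, the Kupffer level relative to free RNA ran from 0.234 to 2.89 (Sult5a1) with a median of 0.602, against a median of 0.428 in other macrophages. Cps1 stood at 823 CPM against 1272 CPM in free RNA and Cyp2e1, a pericentral gene, at 306 against 911 CPM. Onecut1, a hepatocyte transcription factor, was 2.30-fold (1.74 to 3.03) higher in Kupffer nuclei than in other macrophages, on 96 and 120 UMIs, and its bearing on the C6 level was not tested. With barcodes of over 8000 UMIs left out, C6 stood at 4.73 times free RNA.

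C5ar1 (ENSMUSG00000049130, chr7:16246743-16259540, minus strand), the receptor for the C5a fragment on myeloid cells, had its highest levels in the macrophage gates. It stood at 36.0 CPM (12 UMIs) in Kupffer nuclei, 37.7 CPM (36 UMIs) in other macrophages and 4.23 CPM (142 UMIs) in free RNA. These were 8.52 times (4.30 to 15.3) and 8.90 times (5.99 to 12.9) free RNA, and the macrophage gates did not differ beyond counting error, at a fold of 0.957 (0.453 to 1.88). In all hepatocyte gates together it had 14 UMIs, or 0.462 CPM. No UMI was seen in pericentral nuclei or in the Ccnd3-high gate, which at a floor of 3 counts allows up to 0.352 and 1.80 CPM. The mesothelial and intermediate hepatocyte gates also had none, which at that floor allows up to 11.6 and 1.495 CPM. Because of this C5ar1 was left out of the hepatocyte and tumour comparisons, for want of 20 UMIs. After thinning, it was seen in 9.38% (3.52 to 19.3) of 64 Kupffer nuclei and 4.96% (2.67 to 8.34) of 262 other macrophages, against 0.159% of 1258 periportal nuclei and 0 of 106 T cell nuclei, which at a floor of 3 counts allows a share of up to 2.83% of nuclei with a UMI at that depth. In stellate nuclei C5ar1 stood at 7.04 CPM (22 UMIs), or 1.66 times (1.01 to 2.62) free RNA, and was seen after thinning in 1.54% (0.770 to 2.74) of 715. The unthinned shares were 14.1%, 8.83%, 0.954% and 1.56%, at median depths of 2884.5, 2643, 13620.5 and 2530.5 UMIs. Neutrophils carry C5ar1 too. The 10 neutrophil markers summed to 186 CPM in other macrophages, with 9 of 10 detected, 51.0 CPM in Kupffer nuclei, with 5 of 10 detected, and 62.1 CPM in free RNA, with all 10. The defining marker Ly6g was at 0 in every gate, so its 0 in both macrophage gates is not particular to them. Csf3r stood at 115 CPM in other macrophages and 30.03 CPM in Kupffer nuclei. What neutrophils added to C5ar1 was not tested.

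Compared with each other, the macrophage gates differed by at least 2-fold in 3 of 42 members, 1 higher in Kupffer nuclei (all genes: 5.27%) and 2 lower (all genes: 9.23%), a share below the background. C6 was the higher one. F11 stood at 15.01 CPM (5 UMIs) in Kupffer nuclei and 38.7 CPM (37 UMIs) in other macrophages, a fold of 0.388 (0.119 to 0.989). Lcn2 had a fold of 0.436 (0.298 to 0.621), at 108 and 248 CPM, both below its free RNA level of 531 CPM. C9 leaned to the Kupffer side at 1.71 (1.41 to 2.09), and F7 to the other at 0.518 (0.263 to 0.943). At 0.247 times free RNA in Kupffer nuclei and 0.361 times in other macrophages, C3 lay under the haemoglobin value of both gates. Among 97 other pathway genes, 7 were higher (all genes: 5.27%) and 12 lower (all genes: 9.23%) in Kupffer nuclei by at least 2-fold. Vsig4, a complement receptor of resident macrophages, was 8.36-fold (5.91 to 12.003) higher, the lectin Fcna, which partners the Masp proteases, 10.5-fold and Cfp (properdin), which stabilises the alternative convertase, 2.31-fold. F13a1, the catalytic chain that F13b carries, had 2 UMIs in Kupffer nuclei and stood at 324 CPM (310 UMIs) in other macrophages, a ratio of 0.0185 (0.00223 to 0.0675). The integrin chains Itgax and Itgam, parts of complement receptors, were lower in Kupffer nuclei, Itgam 5.83-fold (2.88 to 13.8) on 8 against 134 UMIs.

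In the stroma, Masp1 in stellate cells was the one member at least 2-fold above free RNA. Stellate cells are the pericytes of the sinusoid, and their marker Reln stood at 2822 CPM in this gate. At least 2-fold above free RNA were 1 of 42 members in stellate nuclei (all genes: 20.1%), 0 in fibroblasts (all genes: 24.7%), 0 in pericytes or smooth muscle (all genes: 23.7%), 0 in sinusoidal endothelium (all genes: 23.1%) and 0 in other endothelium (all genes: 22.1%). At least 2-fold below it were 31 (all genes: 17.1%), 38 (23.7%), 34 (22%), 22 (16%) and 41 (21.9%) in the same order. All shares of higher members were below the background.

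Masp1 (ENSMUSG00000022887, chr16:23449417-23520815, minus strand) encodes the protease that activates Masp2 in the lectin pathway, and a variant that acts on factor D. It stood at 537 CPM (1678 UMIs) in stellate nuclei, 251 CPM in hepatocytes and 111 CPM in free RNA, so the stellate level was 4.85 times (4.57 to 5.14) free RNA. Sinusoidal endothelium had 1.68 times free RNA, pericytes or smooth muscle 1.40, fibroblasts 0.983 and other endothelium 0.505 times. After thinning, Masp1 was seen in 53.4% (49.7 to 57.1) of 715 stellate nuclei, against 31.3% of periportal nuclei, 15.1% (8.88 to 23.4) of 106 T cell nuclei and 6.72% of other endothelium. The unthinned shares were 73.8%, 89.0%, 30.5% and 15.01%, at median depths of 3084, 13620.5, 2530.5 and 3704 UMIs. The hepatocyte markers had a median of 0.693 times free RNA in the stellate gate, with a highest value of 1.14 (Kyat3). The collectins that carry the Masp proteases were also high in this gate. Colec10 stood at 21.6 times (19.8 to 23.5) free RNA and Colec11 at 11.5 times (10.7 to 12.4). C7, which joins the membrane attack complex between C6 and C8, stood at 10.7 times free RNA in stellate nuclei, 54.6 times (48.3 to 61.9) in fibroblasts and 50.3 times (43.7 to 58.0) in pericytes or smooth muscle. In hepatocytes C7 stood at 0.449 times. C6 itself was at 1.22 times free RNA in stellate nuclei, 0.484 in fibroblasts and 0.712 in pericytes or smooth muscle.

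Other clotting and complement genes stood above free RNA in endothelium. F8 stood at 19.2 times (17.2 to 21.4) free RNA in sinusoidal nuclei, Cd55, which speeds the decay of convertases, at 16.6 times and Tfpi, which blocks tissue factor, at 7.70 times. Vwf stood at 16.3 times (13.5 to 19.7) in other endothelium. None of the listed members reached 2-fold in either endothelial gate. The highest was Masp1 in both, followed in sinusoidal nuclei by C5ar1 at 1.30 times on 4 UMIs, C6 at 1.12 times and C8a at 1.09 times. The hepatocyte markers had a median of 1.16 times free RNA there, with a highest value of 1.59 (Kyat3), and their part in these levels was not tested.

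Mesothelial nuclei, which line the liver surface and carried Wt1 at 485 CPM, numbered 66. In them 1 of 42 members was at least 2-fold above free RNA (all genes: 22.8%) and 29 were at least 2-fold below it (all genes: 31.6%). C2 stood at 131 CPM (34 UMIs), or 2.09 times (1.45 to 2.93) free RNA, and its interval reached below 2. C1s1 stood at 347 CPM, 1.58 times (1.27 to 1.94). C1ra, its partner in the classical pathway, stood at 0.846 times and C3 at 0.428 times, against a haemoglobin value of 0.367. In the ductal gate 0 members were higher (all genes: 27.4%) and 39 lower than free RNA (all genes: 20%). C2 was its highest member at 0.925 times (0.798 to 1.07), and Masp1, C1s1 and Lcn2 followed at 0.568, 0.529 and 0.457 times, against a haemoglobin value of 0.231. The T and B cell gates had 0 and 0 members higher (all genes: 25% and 25.6%) and 21 and 18 lower (all genes: 17.5% and 25.3%). In those gates the hepatocyte markers had medians of 1.13 and 1.44 times free RNA, and their part in these levels was not tested.

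Some members share sequence with a near copy, which could divide or merge their counts. Transcript identity was 94.4% between Saa1 and Saa2, 91.0% between Orm1 and Orm2, 93.8% between Kng1 and Kng2, 96.2% between C4b and C4a, 98.1% between C1ra and C1rb and 96.1% between C1s1 and C1s2, so the values of these members are uncertain as to the copy. Whether strand was used in counting is not stated in the labels or file headers. C2, C8a, C1s1, F5, Fgg, Masp1, Masp2, Plg, Serpinc1 and Serpind1 overlap a gene on the opposite strand, and their reads could not be told from its reads if strand was not used.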

How the data were processed

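Nuclei were profiled with the 10x 3' kit, per the labels' protocols. The deposited matrices hold UMI counts per gene and barcode without normalization, per the file headers, with Cell Ranger 5.0 and mm10 per the submitters' processing notes. Per its file header the raw matrix, from which free RNA was taken, was written by Cell Ranger 4. The step that combined both samples, and the use of strand or introns, are not given in the sources used here. Barcodes with at least 500 UMIs, 300 genes and at most 5% mitochondrial UMIs were kept (16411 of 17169), with a median of 2794 UMIs before filtering. Doublets were called with scrublet in scanpy 1.11.5 among barcodes of at least 2000 UMIs (323 calls) and left in, with removal as an alternative.

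A nucleus entered a gate by its marker UMIs divided by those expected from free RNA at its depth: at least 4 times, with 4 markers seen (3 for tumour gates). Nuclei that passed for more than 1 lineage were left out, with 1 exception. For nuclei that passed the T or B cell list, a macrophage pass counted only if the Kupffer list passed. The T and B cell gates thus kept nuclei with macrophage-list RNA. The list of macrophages without Kupffer markers had medians of 4.80 and 3.98 times free RNA there. Within the endothelial, mesenchymal and macrophage lineages, a nucleus went to the gate with its highest score. Other endothelium was thus not free of sinusoidal markers. The sinusoidal list, which shares genes with the general endothelial list, had a median of 10.0 times free RNA there. Stab2 stood at 229 CPM there, 1987 CPM in sinusoidal endothelium and 45.3 CPM in free RNA. Hepatocytes needed at least 3000 UMIs, the hepatocyte list at 0.5 times or more and both tumour lists under 1, with the zone set by the ratio of pericentral to periportal score (at least 1, at most 0.5, or between). The Ccnd3-high gate needed the same depth and hepatocyte score and a Pkhd1 score under 3. UMIs were summed per gate as CPM, so deep nuclei weigh more. Folds carry exact intervals from scipy 1.17.1, and a fold of at least 2 with 20 UMIs over both classes was called. Log2 medians use a pseudocount of 1 CPM. For levels with free RNA subtracted, the free RNA profile times the gate's haemoglobin value was taken off and the rest rescaled. Cluster classes came from Leiden clusters (leidenalg 0.10.2). All members were named, and of 118 other pathway genes up to 5 per comparison and direction with the largest differences, plus partners of a member; some are not reported here.

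The members and gene lists were chosen with earlier results of these data known. The tumour markers came from those results. Gate and cluster thresholds were set and revised after marker and member levels had been seen, and several forms of the Ccnd3-high gate and a 4-marker form of the Zfp804a gate were tried. The haemoglobin yardstick, the length relation, the motifs and promoters, the comparisons between gates other than the 6 main ones and 3 alternatives (both zones as separate reference, deep barcodes left out) were also chosen after seeing the data. The calculation of folds and intervals was checked on simulated Poisson counts. These hold no variation between nuclei, no free RNA and no gating error, so the check covers the calculation only and not the fit of the intervals to these data.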

Additional observations from a re-analysis of the deposited data

How the results depend on the processing

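No paired analysis was possible because cell barcodes here carry no sample name, which also prevented refits without either sample. Of 619 values, under the alternatives, of folds that were called in the main comparisons (against free RNA, the higher ones), 605 stayed beyond 2-fold, 14 came within it and 0 reversed. Folds within 2-fold are not in that count. With free RNA subtracted, Hp, Orm1, Hpx, Saa2 and Itih4 turned below 1 in the Ccnd3-high gate, as did C3 in the Pkhd1-high gates. Of 44 medians, 4 moved. By construction, the alternative pseudocount of 5 CPM and the minimum of 100 UMIs per gene could not change a fold. Free RNA of 1 to 100 UMIs could not change a fold or median between gates. The unchanged values under these settings are therefore no evidence of stability. In the zone comparison, the members at least 2-fold lower (1) numbered 4 with gate excess doubled, 6 with free RNA subtracted and 0 with classes from clusters. In the Ccnd3-high gate, the members higher (1) numbered 0 with gate excess doubled, with at most 1% mitochondrial UMIs, with the 50 most abundant genes left out of the total and against the periportal gate, and 2 with classes from clusters and against the pericentral gate. Those lower (12) numbered 20 with free RNA subtracted, and the median log2 ratio went to -0.85 with gate excess doubled and -0.98 with free RNA subtracted. In the Pkhd1-high gates, 1 member rather than 0 was higher with classes from clusters, and the median went to -7.40 with free RNA subtracted, where many members have nothing left, and to -2.06 against the pericentral gate. Between the Zfp804a and Kcnj16 types, 4 members were higher (1) and 14 lower (0) with free RNA subtracted, on residues near 0, and 1 was lower with at most 1% mitochondrial UMIs. In the macrophage gates, the pairs of member and gate at least 2-fold above free RNA (3) numbered 1 with classes from clusters, where no cluster was of Kupffer class and its 2 pairs could not be run. In the stroma gates, such pairs (1) numbered 3 with at most 1% mitochondrial UMIs and 2 both with free RNA of 1 to 100 UMIs and with the barcodes of over 8000 UMIs left out. The other causes were not tested. Subtraction was not run for comparisons against free RNA itself. The small gates limit what depth can show: C5ar1 rests on 12 UMIs in Kupffer nuclei.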
